A study of Homo sapiens with 10 samples.

Results

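CD44 and VCAN are 2 of the 12373 genes in a table of UMI counts (unique molecular identifiers, 1 per captured transcript) from single Kuramochi cells. CD44 codes for a hyaluronan receptor of the cell surface and VCAN for versican, a proteoglycan of the matrix that binds hyaluronan. Both were chosen with their values in these cells known, for their levels along the drug doses, across cell states and together in the same cells. Those values are therefore descriptions, and none of them carries a test. Kuramochi is an established ovarian cancer line, labelled as epithelial and BRCA2-mutant, a genotype that every population carries, the untreated one included. Population C had no drug, and T1, T2.5, T5, T10, T20, T40, T80, T160 and T320 grew to confluency in olaparib, an inhibitor of PARP enzymes, at the dose in µM that each name gives. The doses are steps of 1 escalation of 1 line, with 1 inDrop droplet library each, so the spread between replicate cultures is unknown. Every difference between doses is also a difference between libraries, and the 95% intervals given below cover counting error only.

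CD44 spans the plasma membrane and holds the polysaccharide hyaluronan outside the cell. Inside the cell its tail is tied to the actin cytoskeleton by ezrin, radixin and moesin, and its outer part can be shed by proteases. Versican carries chondroitin sulfate chains and builds hyaluronan-rich, loose matrix around cells, from which ADAMTS proteases release fragments. In ovarian cancer, CD44 is much used as a surface marker of tumour-initiating cells and versican is known mainly from the tumour stroma.

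In GENCODE 29 on GRCh38, CD44 (ENSG00000026508.18) lies on the plus strand of chromosome 11 from 35138870 to 35232402 and has 39 annotated transcripts, 26 of them protein coding. VCAN (ENSG00000038427.15) lies on the plus strand of chromosome 5 from 83471465 to 83582303 and has 12 transcripts, 7 of them protein coding. Both genes are known for alternative exons, and the table holds 1 count per gene, so no isoform was measured. The 250 bases before each RefSeq start (GRCh38.p14) were searched on both strands for 4 short motifs, since both genes were high in the same late populations. Neither window held an AP-1 site (TGANTCA, found in 6.57% of 35116 promoter windows), a TEAD site (GGAATG, 11.9%) or a TATA box (TATAAA, 10.7%). The GC box (GGGCGG, 42.6%) was found at 2 places in the CD44 window and at 1 in the VCAN window. These places precede the RefSeq starts but lie inside the GENCODE spans given above, after the first annotated base of each gene. The matches are shown on the plus strand with the motif or its reverse complement in capitals, the CD44 one at chr11:35138989-35139018 and the VCAN one at chr5:83471562-83471591.
CD44: cagcagagcacgGGGCGGgggcagaggggc
VCAN: ggagctgcctttCCGCCCctccgcctgctt
These letters describe the windows and say nothing of which factors bind there.

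The libraries held 726 to 2645 cells and 1976069 to 9343704 UMIs, with a median of 1145 to 2974.5 UMIs per cell. Of 17195 barcodes, 970 occurred in more than 1 library (1984 cells, 10.9%). In each library the rarest gene above 0 had a UMI in 0.957% to 0.995% of cells, so a gene listed at 0 may have been present in fewer cells and is not a measured absence. Of the epithelial markers, KRT8, KRT18 and DSP were present in all 10 populations, KRT19 was listed at 0 in T160 and T320, and EPCAM was listed at 0 except in T10, T20 and T160 (at most 5.17 CPM, counts per 1000000 UMIs). The summed level of the 5 epithelial markers in the table ran from 249 CPM in T160 to 2249 in T2.5. The 4 serous ovarian markers together gave 824 CPM in untreated cells, 198 at the highest dose and the lowest sum, 171, in T80, with PAX8 present throughout, WT1 at 0 in T160 and T320, and MUC16 at 0 except in T20 (5.64 CPM). The summed level of the 3 fibroblast markers in the table was 5.24 CPM in C, highest in T10 (691, mostly COL1A1), 32.7 in T40 and 0 in T320. Of the leukocyte markers, CD68 was in the table, with 0 CPM from C to T20, 4.16 in T40 and 43.9 in T320. Of the endothelial markers, VWF was 3.75 CPM in C, 10.3 in T1, 6.40 in T2.5 and listed at 0 from T5 on. CDH5 was 6.96 CPM in C and listed at 0 in every treated population. CDH1, PTPRC, CD3E, LYZ, PECAM1, DCN, LUM and COL1A2 were not in the table, so no level can be given for them. The parts of these marker changes in the results below were not tested.

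CD44 was lowest after the first exposure and highest in T40 and T320. The level was 24.3 CPM before treatment (C, 227 UMIs), then 5.43 (T1), 9.60 (T2.5), 15.7 (T5), 29.2 (T10), 66.1 (T20), 402 (T40), 218 (T80), 204 (T160) and 403 (T320). From T1 to T40 each population was above the one before it, and T80 and T160 lay between T20 and the pair T40 and T320. C was 4.47-fold above T1 (interval 3.03 to 6.83), a log2(CPM + 10) difference of T1 minus C of -1.15 (-1.38 to -0.91). The longest step was from T20 to T40, 6.08-fold (5.37 to 6.92). T40 was 1.84-fold above T80 (1.73 to 1.97), and T320 was 1.98-fold above T160 (1.83 to 2.13). Some neighbours in the order of levels did not differ beyond counting error: T320 over T40 was 1.00 (0.933 to 1.08), and T160 over T80 was 0.936 (0.873 to 1.00). The intervals of C (21.2 to 27.7 CPM) and T10 (24.2 to 34.8) overlapped, as did those of T2.5 (6.48 to 13.7) and T5 (10.7 to 22.3). Because of the low level after first exposure, T320 stood 74.3-fold above T1 (51.4 to 111).

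**Figure D1:**
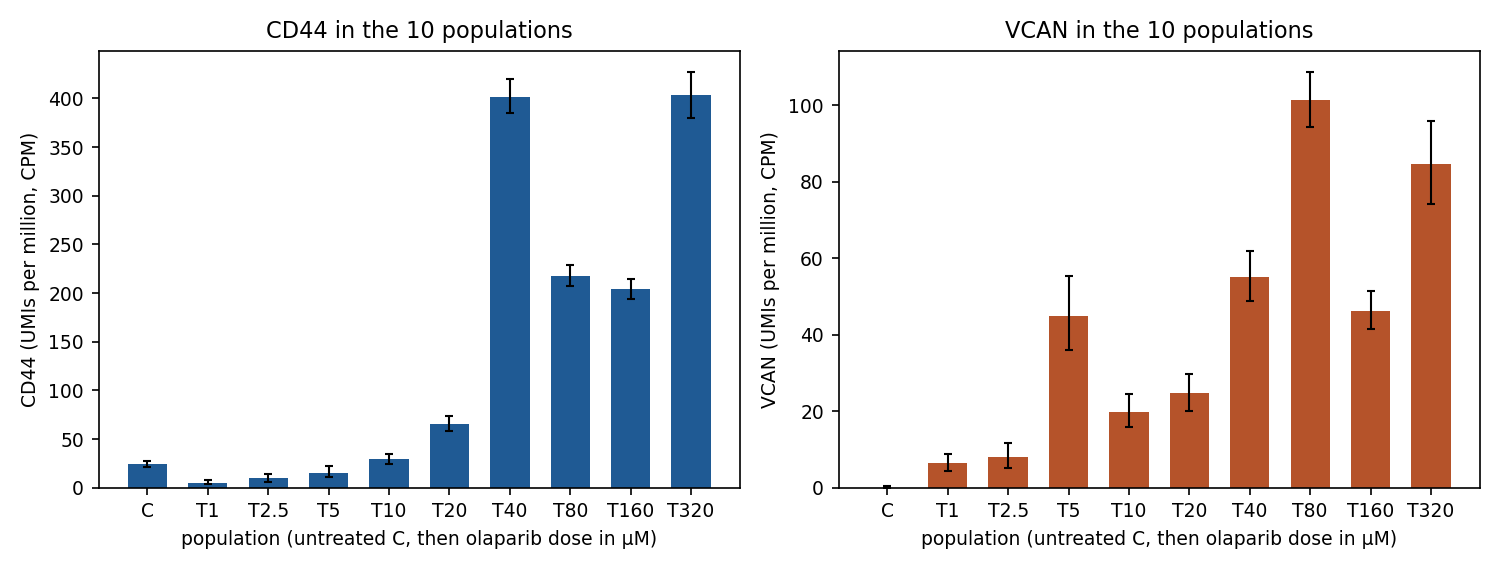
CD44 (left) and VCAN (right) in the 10 populations, in CPM, with bars for the summed count of each library and lines for the exact Poisson 95% interval, which covers counting error only. CD44 is at most 66.1 CPM up to T20 and 204 to 403 CPM from T40 on, and VCAN has a first high value in T5 (45.0 CPM) and its highest in T80 (101 CPM).

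CD44 UMIs were found in a minority of cells in every population. The share of cells with at least 1 CD44 UMI was 8.78% (C), 1.25% (T1), 1.86% (T2.5), 2.75% (T5), 5.19% (T10), 12.7% (T20), 41.1% (T40), 41.9% (T80), 27.4% (T160) and 43.2% (T320). Since deeper cells show more genes, each cell was also thinned to 1000 UMIs, leaving out 365, 429, 614, 192, 291, 359, 151, 10, 430 and 243 shallower cells in the same order. The thinned shares were 2.52%, 0.624%, 1.03%, 1.24%, 2.36%, 5.40%, 25.8%, 18.3%, 14.7% and 28.2%. After thinning, T40 and T320 stood above T80, whose cells were the deepest, as they did in CPM. No cell type that should lack CD44 was present in these libraries, so the share that free RNA gives was not measured. In T1 all 29 cells with CD44 held a single UMI, and these cells were only just above the rarest gene of that library (23 cells).

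CD44 UMIs were less evenly spread over cells than 1 common level gives in C and from T20 on. If every cell of T40 had carried CD44 at the same fraction of its UMIs, 57.5% of cells would have had a UMI, against 41.1% observed. The same gap was 48.8% against 41.9% in T80, 41.5% against 27.4% in T160 and 53.3% against 43.2% in T320. It was 11.0% against 8.78% in C and 16.9% against 12.7% in T20. In T5 (4.13% against 2.75%) and T10 (5.96% against 5.19%) the gap lay within counting error. In T1 and T2.5 the values hardly differed (1.24% against 1.25%, and 1.89% against 1.86%). In T40, 115 cells had 5 or more CD44 UMIs and together held 37.9% of all CD44 UMIs of that library. Such cells held 14.1% in T80 (39 cells), 31.2% in T160 (68 cells) and 21.6% in T320 (36 cells). The highest count in 1 cell was 22 UMIs, seen in both T160 and T320. The part of doublets in these cells was not tested.

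**Figure D2:**
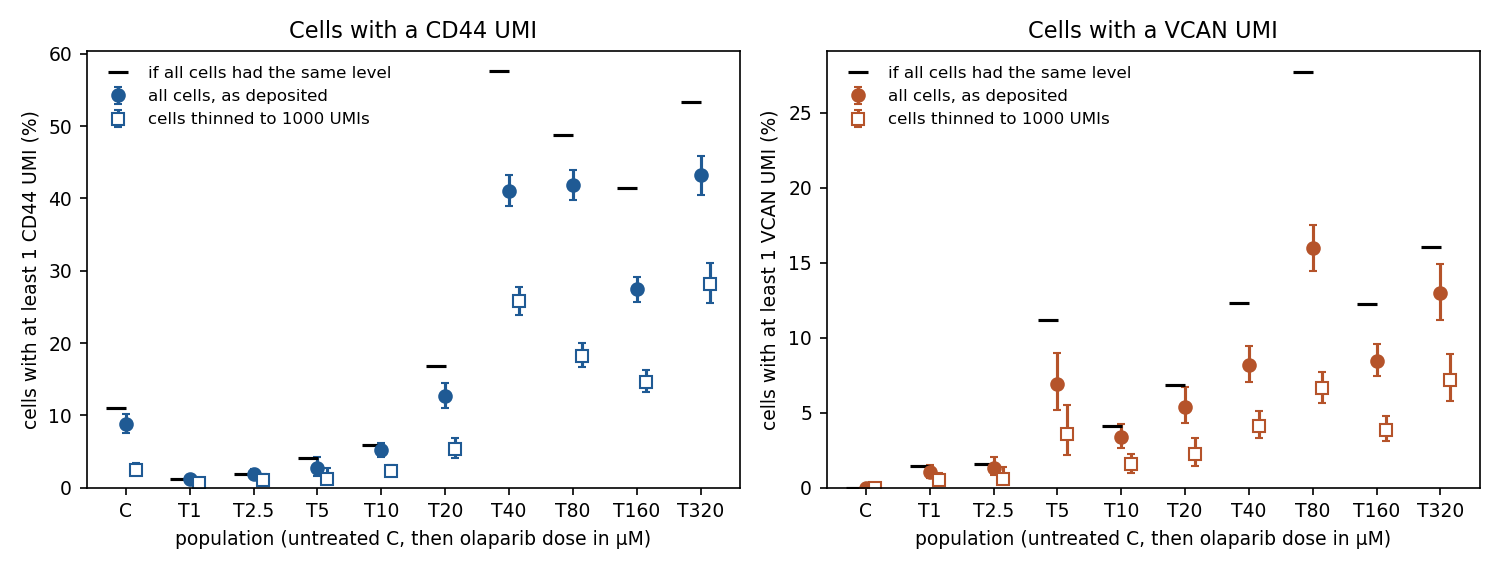
Percent of cells with at least 1 UMI of CD44 (left) and VCAN (right) in each population: filled circles for all cells, open squares after thinning each cell to 1000 UMIs, and dashes for the share that would follow if all cells had the same level, with exact binomial 95% intervals. In T40, T80, T160 and T320 the dashes lie above the circles for both genes, for example 57.5% against 41.1% for CD44 in T40.

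VCAN was not listed above 0 in C and had high values at separate doses. The level was 0 CPM before treatment, then 6.37 (T1, 34 UMIs), 8.0 (T2.5), 45.0 (T5), 19.9 (T10), 24.7 (T20), 55.1 (T40), 101 (T80), 46.3 (T160) and 84.6 (T320). T5 stood above both its neighbours, 5.63-fold over T2.5 (3.58 to 9.16) and 2.26-fold over T10 (1.66 to 3.08). T5 was also the shallowest library, with 89 VCAN UMIs in 50 cells. The other high values were T80, 1.84-fold over T40 (1.60 to 2.12) and 2.19-fold over T160 (1.93 to 2.49), and T320, 1.83-fold over T160 (1.54 to 2.16). VCAN was thus higher in T80 than in T40, while CD44 was lower. T80 over T320 was 1.20-fold (1.04 to 1.39). The intervals of T160 (41.6 to 51.4 CPM), T5 (36.2 to 55.4) and T40 (48.8 to 61.9) overlapped, T20 over T10 was 1.24 (0.921 to 1.67), and T2.5 over T1 was 1.26 (0.718 to 2.17).

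The 0 in C bounds VCAN only loosely. The rarest gene of C above 0 had a UMI in 18 cells, so up to 17 cells could have held VCAN, which at 1 UMI each makes 1.82 CPM. T1 listed VCAN in 24 cells, against 23 for its rarest gene. The share of cells with a VCAN UMI was 1.04% (T1), 1.35% (T2.5), 6.89% (T5), 3.37% (T10), 5.41% (T20), 8.18% (T40), 16.0% (T80), 8.47% (T160) and 13.0% (T320). Thinned to 1000 UMIs, it was 0.515%, 0.613%, 3.56%, 1.56%, 2.24%, 4.14%, 6.62%, 3.89% and 7.20%. T80 then lay below T320, against the order in CPM, so no order of this pair is read from the shares. In T80, 24 cells with 5 or more UMIs held 35.6% of the VCAN UMIs, 1 of them with 33, and an even level would have put a UMI in 27.7% of cells against 16.0% observed.

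A metadata table that the authors deposited assigns 8240 of the 18209 cells (45.3%) to 6 states, named C and S1 to S5. The deposited name of that table carries the label g1, which the sources used here do not explain. They do not otherwise give how cells and states were chosen. Since the states were made from these cells, differences between them are descriptions. Within every library that held S4 cells, CD44 was higher in S4 than in the other states. In T10, CD44 was 53.0 CPM in S4 (196 cells), 9.74 in S2 (688 cells) and 0 in S3 (0 of 146 cells, which allows a share of up to 2.05%). Such a limit is for cells with a captured UMI at this depth, not for cells that express the gene, and so it is for the other zeros in states below. In T20 it was 145 CPM in S4 (74 cells), 27.9 in S2 (417 cells) and 21.7 in S3 (149 cells). S4 stood above S2 by 5.44-fold in T10 (2.70 to 11.4) and by 5.20-fold in T20 (3.23 to 8.35). In T40 it was 416 CPM in S4 (697 cells) and 107 in S3 (221 cells), 3.90-fold (2.99 to 5.17). In T80 the values were 183 in S4 (838 cells) and 20.2 in S3 (72 cells, 5 UMIs), 9.06-fold (3.86 to 28.0).

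State membership and dose both went with CD44. Among S4 cells alone, CD44 was 53.0 CPM in T10, 145 in T20, 416 in T40 and 183 in T80. T40 S4 cells were 7.85-fold above T10 S4 cells (5.24 to 12.3) and 2.28-fold above T80 S4 cells (2.04 to 2.54). S4 made up 19.0% of the listed cells in T10, 11.6% in T20, 75.9% in T40 and 92.1% in T80. For the next values, the share of a state was its share of the UMIs of the listed cells, not of the cells. With the state levels of T20 and the state shares of T40, the listed cells would have had 118 CPM, against 39.6 in T20 and 347 in T40. With the levels of T40 and the shares of T80 they would have had 392, against 170 observed in T80. S5, to which all listed cells of T160 and T320 belong, had 154 and 301 CPM. At low doses CD44 was at most 12.5 CPM in the states of treated cells: 5.55 in T1 S1 (21.0 in untreated C), 6.28 in T2.5 S1 and 0 in T2.5 S2 (0 of 134 cells, which allows a share of up to 2.24%), 8.95 in T5 S1 and 12.5 in T5 S2.

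**Figure D3:**
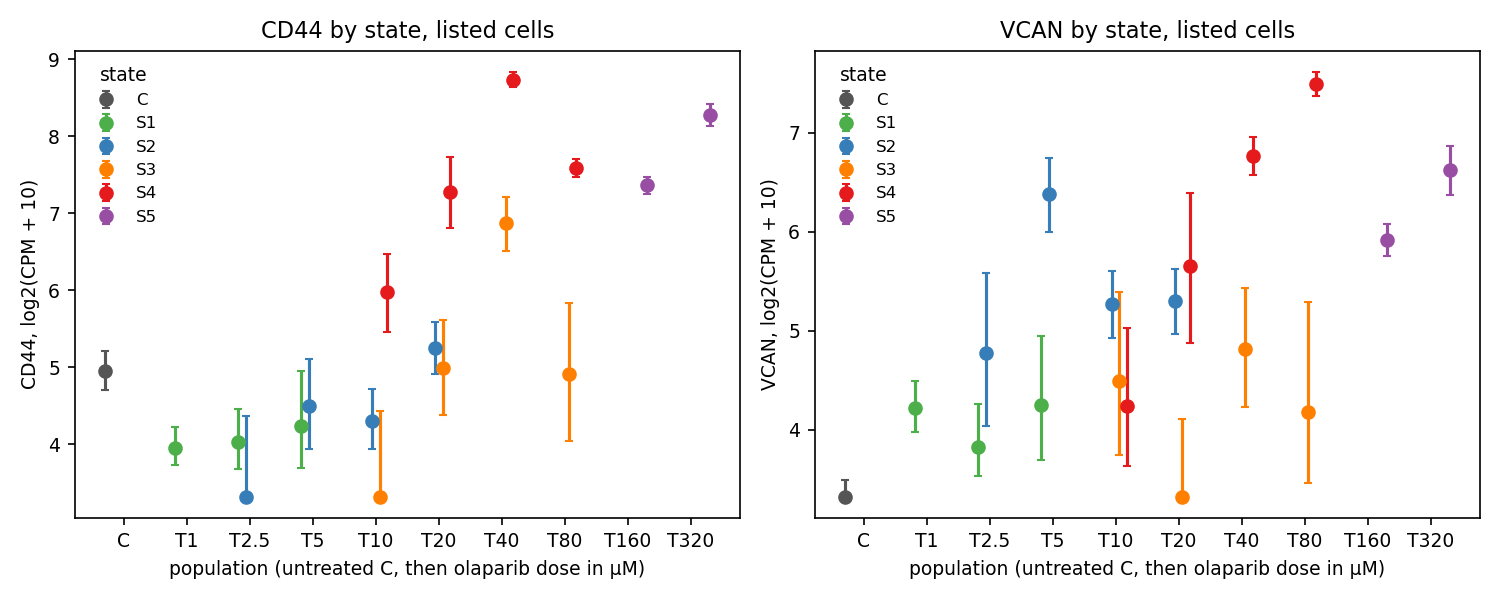
CD44 (left) and VCAN (right) as log2(CPM + 10) in the states of the listed cells, by population, with points for the summed counts of a state within 1 library and lines for counting error (95%). CD44 is highest in S4 wherever S4 occurs, whereas VCAN in S4 is below S2 in T10 (8.84 against 28.5 CPM) and above S3 in T40 and T80.

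VCAN was spread over the states in another way. In T5 it was 73.4 CPM in S2 (215 cells) and 8.95 in S1 (183 cells), 8.20-fold (3.27 to 26.4). CD44 in the same cells was 12.5 and 8.95 CPM from 8 and 5 UMIs, a ratio of 1.40 (0.402 to 5.42) too wide to set against that of VCAN. In T2.5 the values were 17.5 in S2 and 4.19 in S1, from 6 UMIs each. In T10 VCAN was 28.5 CPM in S2, 12.5 in S3 and 8.84 in S4, the last from 4 UMIs in 2 cells, and S2 stood 3.23-fold above S4 (1.17 to 12.4). In T20 it was 40.4 in S4 (10 UMIs), 29.3 in S2 and 0 in S3 (0 of 149 cells, which allows a share of up to 2.01%), and S4 over S2 was 1.38 (0.618 to 2.79). S4 held more VCAN than S3 at both later doses. In T40 the values were 99.0 and 18.1 CPM (5.47-fold, 2.91 to 11.6). In T80 they were 171 and 8.07 CPM, a ratio of 21.1 (5.82 to 175) that rests on 2 UMIs in S3.

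Among S4 cells alone, VCAN was higher at each dose from T10 to T80: 8.84, 40.4, 99.0 and 171 CPM. T80 S4 cells were 1.72-fold above T40 S4 cells (1.45 to 2.05), at doses where CD44 in S4 was lower in T80. Few cells held much of it: 20 T80 S4 cells with 5 or more UMIs had 45.9% of that state's VCAN UMIs, against 21.2% in 5 such cells of T40 S4. With the levels of T20 and the state shares of T40 (again by UMIs), VCAN would have been 31.3 CPM. It was 23.9 in the listed cells of T20 and 80.9 in those of T40. S5 cells had 50.4 CPM in T160 and 88.6 in T320.

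In T2.5 and from T10 on, the cells that the metadata table leaves out carried more CD44 than the listed ones, and in T1, T40 and T80 they carried less VCAN. A sum of 6 mitotic genes (MKI67, TOP2A, CCNB1, CDK1, UBE2C and BIRC5, picked after values were seen) was 114 to 232 CPM in the listed states and 1279 to 2529 CPM in the other cells. CD44 was 480 CPM in the unlisted and 301 in the listed cells of T320 (1.60-fold, 1.41 to 1.81), and 95 and 39.6 CPM in T20 (2.40-fold, 1.85 to 3.12). The unlisted to listed ratio was 3.07 in T2.5 (1.35 to 7.62), 2.46 in T10, 1.31 in T40, 1.49 in T80 and 1.74 in T160, whereas the intervals for 1.22 in C (0.908 to 1.67), 0.947 in T1 (0.404 to 2.12) and 2.14 in T5 (0.989 to 4.74) include 1. VCAN in T1 was 8.63 CPM in listed and 2.87 in unlisted cells (3.01-fold, 1.22 to 8.89). These T1 values rest on 34 UMIs in 24 cells, against 23 cells for the rarest gene of that library. In T40 it was also lower in the unlisted cells, with 80.9 CPM in listed and 30.5 in unlisted cells (2.65-fold, 2.03 to 3.48). In T80 VCAN was 158 and 59.6 CPM (2.65-fold, 2.28 to 3.09). In T320 the VCAN values of 88.6 and 81.5 did not differ beyond counting error (1.09-fold, 0.835 to 1.41).

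CD44 and VCAN occurred in the same cells more often than their separate frequencies give in T160 and T320. The number of cells with both was set against the number expected if the genes were independent among cells of like depth (5 groups of equal cell number by UMIs per cell). In T160, 138 cells had both against 72.2 expected, a ratio of 1.91 (1.61 to 2.26). In T320 it was 114 against 85.8, or 1.33 (1.10 to 1.60). The intervals of the ratio included 1 in T20 (19 against 13.6 cells, 0.841 to 2.18), T40 (95 against 81.8, 0.939 to 1.42) and T80 (184 against 168, 0.941 to 1.26). In T5 and T10, 2 and 3 cells had both, against 2.25 and 4.61 expected, too few to show a difference. Differences between these ratios were not tested.

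Within T160, 19.0% of cells with CD44 also had VCAN, against 4.48% of cells without CD44. The VCAN level was 89.9 CPM in the former and 23.6 in the latter, 3.82-fold (3.05 to 4.80). In T320 the VCAN level was 117 and 50.9 CPM (2.3-fold, 1.74 to 3.09), and in T80 133 and 72.8 (1.83-fold, 1.57 to 2.12). It was 64.3 and 46.3 in T40 (1.39-fold, 1.09 to 1.78), and 42.3 and 21.2 in T20 (interval of the ratio 1.26 to 3.09). These intervals exclude 1 also in T20, T40 and T80, where those of the cell numbers included 1. However, they take each UMI as independent, while few cells held many of the VCAN UMIs (24 cells held 35.6% in T80). They are therefore too narrow, and no co-expression is read from them where the cell numbers do not show it. Within states of T10 to T80, the level ratio was 4.27 in T20 S2 (2.08 to 8.34) and 2.45 in T80 S4 (2.03 to 2.96). The ratio of observed to expected cells had intervals that include 1 in both, 2.09 (0.841 to 4.31) and 1.22 (0.989 to 1.49). The interval of the level ratio included 1 in T10 S2, T20 S4, T40 S3 and T40 S4 (1.09, 0.808 to 1.46 in the last). Among the unlisted cells the level ratio was 1.98 in T40 (1.20 to 3.34) and 1.14 in T80 (0.883 to 1.47). Conversely, 61.6% of VCAN cells in T160 had CD44 against 24.2% of the others. Cells with CD44 were deeper, with a median of 3793 UMIs against 2435.5 in T160 and 2375 against 1517 in T320. They also held more of the 6 mitotic genes, 1793 against 1182 CPM in T320. Among the S5 cells alone, where that sum was 194 CPM with and 202 CPM without CD44 in T320, the ratio of observed to expected cells was 1.84 in T160 (1.43 to 2.32) and 1.46 in T320 (1.05 to 1.97). Among the unlisted cells it was 1.92 in T160 (1.49 to 2.44), and 1.22 in T320 with an interval that includes 1 (0.956 to 1.54). In the unlisted cells of T40 (1.21, 0.853 to 1.66) and T80 (0.962, 0.772 to 1.18) the interval also included 1.

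**Figure D4:**
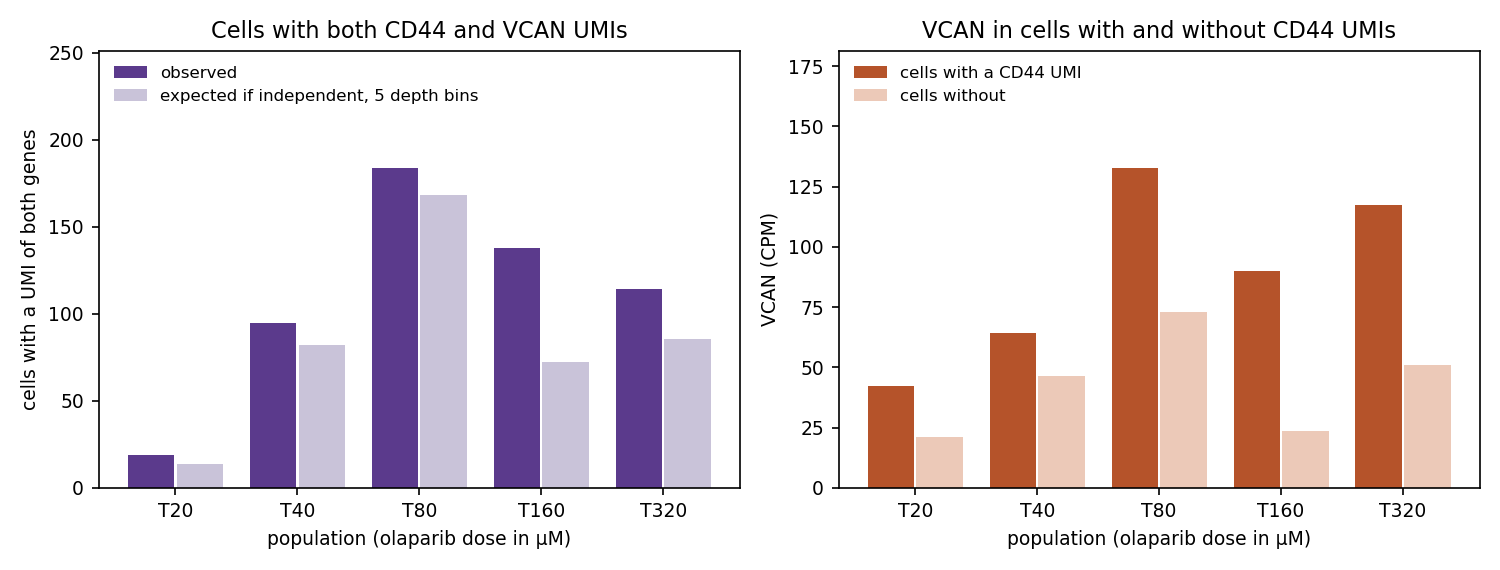
Left, cells with UMIs of both CD44 and VCAN (dark bars) beside the number expected from their separate frequencies within 5 depth groups (light bars), for T20 to T320. Right, VCAN in CPM in cells with (dark) and without (light) a CD44 UMI, with no error bars. The ratio is highest in T160, 89.9 against 23.6 CPM.

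Cells with and without a CD44 UMI were then compared for all other genes in T40, T80, T160 and T320. A gene was counted when it differed by at least 0.5 on the log2(CPM + 10) scale in the same direction in all 4 libraries, a rule set after values were seen. Of 3054 genes, 4 were higher with CD44 (0.131%) and 7 lower (0.229%). The higher ones were NT5E, which codes for the surface nucleotidase CD73, and AURKB, KIF20A and PTTG1, which act in mitosis. NT5E was 261 against 161 CPM in T40, 238 against 157 in T80, 238 against 59.1 in T160 and 213 against 118 in T320. Among S5 cells of T320, NT5E was still 233 against 120 CPM, whereas PTTG1 was 160 against 133. The 7 lower genes were CDKN2A, IGF2, DACH1, SLIT2, OBSL1, ZNF503 and CLU.

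CDKN2A, which codes for the cell cycle inhibitor p16 and for ARF, had the lowest mean difference over the 4 libraries. It was 37.5 CPM in cells with CD44 and 160 in those without in T40, 53.3 and 122 in T80, 315 and 680 in T160, and 105 and 384 in T320. IGF2, a secreted growth factor whose gene overlaps a read-through transcript with insulin, was 2387 and 5027 CPM in T40 and 218 and 627 in T320. SLIT2, a secreted guidance ligand, was 241 and 504 CPM in T160, and DACH1, a transcription factor, 45.9 and 111. Of matrix and mesenchymal genes picked by hand, LAMA4, a laminin chain, was 218 CPM with and 88.2 without CD44 in T160 and 181 and 114 in T40. FN1, which codes for fibronectin, was 940 and 289 CPM in T160 but 3369 and 4067 in T40.

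The same split by VCAN used the same cells. Of 3050 genes, 1 was higher with VCAN (0.0328%) and 3 were lower (0.0984%) in all 4 libraries. The higher one was IGFBP5, a secreted binding protein of insulin-like growth factors, with 350 against 161 CPM in T40, 538 against 310 in T80, 276 against 101 in T160 and 87.8 against 46.2 in T320. BCAM, a laminin receptor of epithelia, was lower, with 65.6 against 182 CPM in T160. CDKN2A was 33.9 CPM with and 108 without VCAN in T40, 52.6 and 97.9 in T80, 134 and 604 in T160, and 25.7 and 286 in T320. Among S5 cells of T320 these values were 10.6 and 390, the former from only 69 cells and so from few UMIs. IGF2 was 2393 and 3901 CPM in T40, 1195 and 2128 in T80, 756 and 2565 in T160, and 66.4 and 490 in T320. Cells with VCAN were also deeper (median 3605 against 2658 UMIs in T160), and the part of depth in these differences was not tested.

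**Figure D5:**
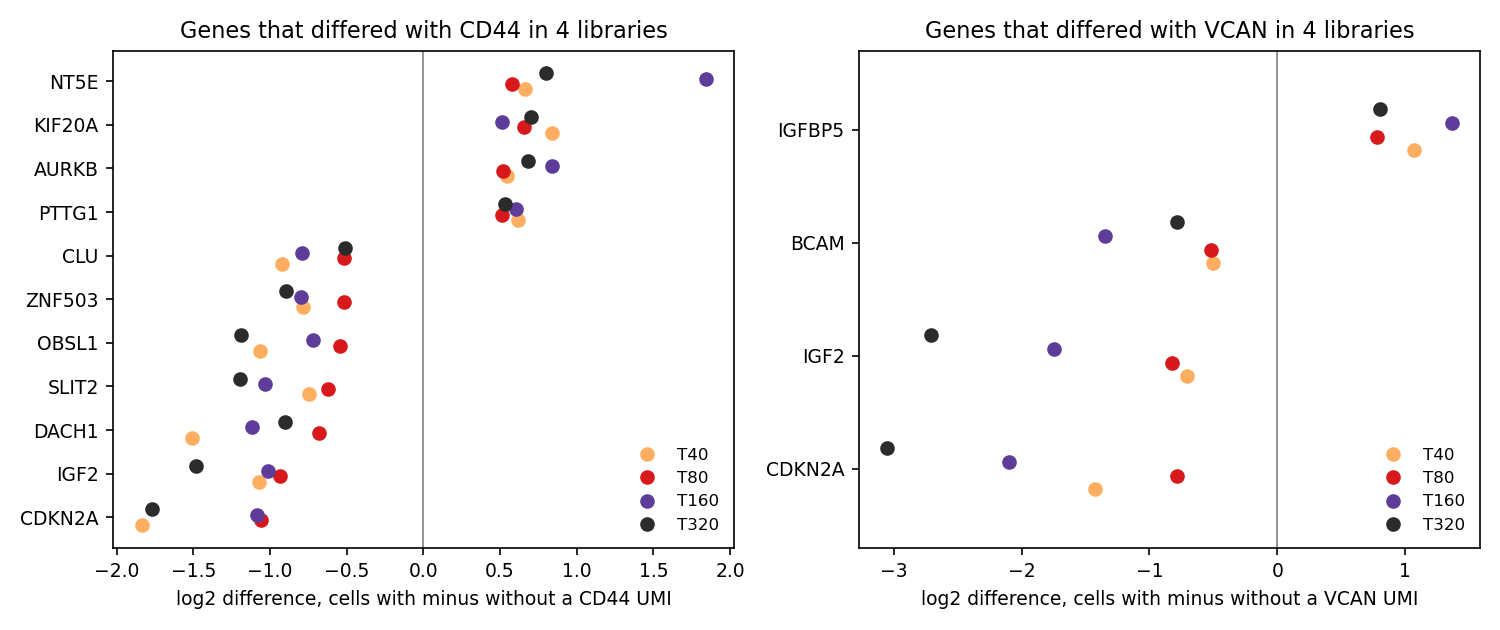
Difference in log2(CPM + 10) between cells with and without a UMI of CD44 (left) or VCAN (right) for each gene that differed by at least 0.5 in the same direction in T40, T80, T160 and T320, 1 point per library. NT5E (0.57 to 1.84) is above 0 for CD44 and IGFBP5 (0.78 to 1.36) for VCAN, while CDKN2A and IGF2 are below 0 on both sides.

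Genes of hyaluronan and versican biology, 71 symbols in 11 roles, gave 44 that were in the table. A gene was measured in a comparison with at least 100 UMIs in all and 50 CPM in at least 1 of the populations, and called with a log2(CPM + 10) difference of at least 1. In T1 against C, 2 of 14 measured members were higher and 1 was lower, against 7.57% and 4.83% of all genes measured, with a median of -0.10 for the members and -0.07 for all genes. FBN2 (61.0 and 164 CPM in C and T1), which codes for a fibrillin, and ANK3 (21.5 and 57.9), an ankyrin, were the higher ones and SPP1 the lower one. In T40 against C, 5 of 16 were higher (HAS2, ADAMTS5, TNC, CHSY1 and DSE) and 2 lower (EZR and SPP1), against 8.88% and 8.76%, with medians of 0.33 and -0.03. In T320 against C, 3 of 17 were higher (HYAL2, CHSY1 and DSE) and 2 lower (EZR and SPP1), against 15.4% and 11.6%, with medians of 0.47 and 0.12. The T320 shares of members were near those of all genes. With TMM and DESeq2 scaling the median of all genes in T320 was -0.22 and -0.16, the shares of all genes higher and lower were 9.14% and 18.6% or 9.88% and 17.3%, and under each 1 member was higher and 3 were lower. HYAL2, CHSY1, DSE, B4GALT7 and ADAM17 passed the 50 CPM minimum only through T320. HAS2, ADAMTS5, CHSY1 and DSE did so only through T40, and ANK3 and ADAMTS5 only through T1. For these genes, being measured leaned to higher values. SPP1, UGDH, FBN2 and B3GALT6 passed in T320 against C only through C, as did B3GALT6 in T40 and UGDH in T1. For those comparisons, being measured leaned to lower values.

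Genes of hyaluronan synthesis and the versican protease ADAMTS5 had their highest levels in T40 or T80. HAS2, a synthase of hyaluronan, was 36.3 CPM in C, 12.7 in T5, 55.0 in T10 and 15.3 in T20, then 82.6 (T40), 101 (T80), 8.92 (T160) and 13.1 (T320). UGDH, which makes the glucuronic acid donor, was 68.0 CPM in C, 127 in T40 and 30.1 in T320. ADAMTS5, a protease that cuts versican, was 33.2 CPM in C, 148 in T40, 135 in T80 and 14.2 in T320. T320 was below C for all 3 genes, and HAS2 lay above C in T1, T10, T40 and T80. TNC, a versican-binding matrix protein, was 383 CPM in C, 1040 in T40 and 533 in T320. HYAL2, a hyaluronidase, was highest at the end, with 28.9 CPM in C, 31.1 in T40 and 74.3 in T320 (2.57-fold over C, 2.14 to 3.09).

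The chondroitin sulfate enzymes DSE and CHSY1 were higher in T40 and T320 than in C. DSE, an epimerase that turns chondroitin into dermatan sulfate, was 11.6 CPM in C, 118 in T10, 94.3 in T40 and 56.6 in T320, the last 4.90-fold above C (3.81 to 6.31). CHSY1, a chain synthase, was 22.6, 71.3 and 58.4 CPM in C, T40 and T320 (2.59-fold in T320, 2.10 to 3.18). The other members of this role measured in T320 were B3GALT6 and B4GALT7, both short of the threshold. B3GALT6 was lower, with 58.6, 24.6 and 32.2 CPM in C, T40 and T320, and B4GALT7 higher, with 21.2, 39.8 and 52.0. The cytoskeletal linkers of CD44 went different ways. EZR (ezrin) was 345 CPM in C, 172 in T1, 102 in T40 and 103 in T320 (3.36-fold below C, 2.98 to 3.81). RDX (radixin) was 227 and 396 CPM in C and T320, and MSN (moesin) 255 and 160, both short of the threshold.

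Of the proteins that cleave CD44, ADAM10 was 106 CPM in C and 212 in T320, and the gamma-secretase subunit NCSTN 112 and 190, both short of the threshold. SPP1, which codes for osteopontin, a secreted ligand of CD44, was 693 CPM in C, 218 in T1, 66.5 in T40 and 30.1 in T320. HMMR, another hyaluronan receptor and a mitotic spindle protein, was 120 CPM in C and 99.4 in T320. ESRP2, a splicing factor that favours the CD44 variant exons, was at most 4.59 CPM in any population. HAS1, HAS3, ESRP1, ACAN and HAPLN1 were not in the table, so no level can be given for them.

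The genes whose profile over the 10 populations was most like that of each member were found by Pearson's r of log2(CPM + 10), among 3695 genes. The points are steps of 1 escalation and share each library's depth and scaling, so r describes likeness and carries no test. For CD44 they were RPL26L1 (0.982), MICA (0.981), NT5E (0.980), CENPM (0.973), MED11 (0.971) and TSEN34 (0.970). RPL26L1 and MICA have near copies, RPL26 and MICB, so their counts are uncertain. NT5E was 41.8 CPM in C and 14.2 in T1, and then reached 210 (T40), 196 (T80), 120 (T160) and 166 (T320). For VCAN they were PPP1R3C (0.964), FHL1 (0.963), GGH (0.954), SMARCA2 (0.949), SOBP (0.937) and ITGA11 (0.935). PPP1R3C, which directs a phosphatase to glycogen, shared the high value in T5, with 8.64 CPM in T2.5, 58.7 in T5 and 23.5 in T10. CD44 and VCAN themselves had r of 0.791 (Spearman's rho 0.830, and r 0.733 without T320 and T40), and VCAN was number 308 in likeness to CD44.

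Few genes near CD44 on chromosome 11 could be compared between C and T320. Of 9 genes in the table within 1000000 bases, 4 were measured in T320 against C. None was called higher and 2 were called lower, against 15.4% and 11.6% of all genes, and 4 genes are too few to set against these shares. NAT10, PDHX and FJX1 passed the 50 CPM minimum only through C, so that their being measured leaned to lower values. PDHX, a subunit of pyruvate dehydrogenase that lies before CD44, was 65.5 CPM in C, 32.3 in T40 and 17.7 in T320. FJX1, which lies after it, was 50.1, 15.1 and 12.4 CPM. TRIM44, farther along, was 199, 185 and 218 CPM. Of the genes below the 50 CPM minimum, CAT was 17.6, 28.5 and 43.5 CPM and ABTB2 35.6, 16.4 and 7.43. Of 3 genes near VCAN, 1 was measured, TMEM167A, with 119 CPM in C and 80.7 in T320.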

How the data were processed

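CD44 and VCAN, the gene lists and the rules below were chosen with earlier results of these data known. The matrix deposited by the authors holds UMI counts per gene and cell (inDrop) without normalization. The authors' metadata table gives counts (UMIs and genes of a cell) and a fraction (mitochondrial UMIs). The submitters' processing notes name hg38, GRCh38 and Seurat 2.3.2, and no aligner, counter, annotation or cell filter is named in the sources used here. Listed cells were matched by name (7322) or, in T40, where the table uses other names, by barcode (918), and all 8240 had identical UMI totals. All 18209 cells (51277639 UMIs) were kept and no doublet caller was run.

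Counts were summed per population or state and scaled to CPM, and differences are of log2(CPM + 10). Poisson and conditional binomial intervals (scipy 1.17.1, numpy 2.4.6, pandas 2.3.3, Python 3.11.15) and Clopper-Pearson intervals of shares are exact, at 95%, and cover counting error only. A limit for 0 is 3 counts of the total. Thinned shares are expected values under hypergeometric sampling of 1000 UMIs. edgeR 4.0.16 (TMM) and DESeq2 1.42.0 (R 4.3.3) gave alternative scaling factors only, and with 1 library per population there was no test. The calculations were tested on simulated data. Named genes were both members in every population and state, list members measured and at least 2-fold different between C and T320 or named for their role, and the 6 genes most correlated with each member. Genes that differed with CD44 or VCAN between cells were named after their values were seen. The alternatives tried were other scalings, pseudocounts, minimum levels, thinning depths, depth groups and sets of cells.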

Additional observations from a re-analysis of the deposited data

Results flagged for a closer look

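VCAN differed between states S4 and S2 in opposite directions in 2 libraries. The log2(CPM + 10) difference of S4 minus S2 was -1.03 in T10 (-1.72 to -0.17, with 4 UMIs in S4 and 41 in S2) and 0.36 in T20 (-0.49 to 1.17, with 10 UMIs in S4 and 43 in S2). The difference between the libraries was not tested. The T20 interval includes 0, and both values rest on few UMIs in S4.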

How the results depend on the processing

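None of the 7 log2 differences of CD44 or VCAN recomputed under alternatives changed its sign, while the median of all genes in T320 against C did (0.12, and -0.22 with TMM, -0.16 with DESeq2 factors and -0.10 with a minimum of 200 CPM). The CD44 difference of T320 minus C (3.59) was 3.34 with TMM, 3.38 with DESeq2 size factors, 4.0 and 2.61 with pseudocounts of 1 and 50 CPM, and 3.32 in listed cells only. That of VCAN (3.24) was 3.59 without mitochondrial and ribosomal protein genes in the total, 6.42 and 1.43 with pseudocounts of 1 and 50, and 3.0 with 17 UMIs put into C, an alternative chosen after seeing the data. The CD44 difference of S4 minus S2 was 2.33 and 0.79 in T10 (1.67 in the report's setting) with pseudocounts of 1 and 50, and 1.33 in T20 (2.03) with 50. A pseudocount sets the size of differences of low genes by its construction and cannot change their sign. The CD44 share in T320 (28.2%) was 22.8% thinned to 750 UMIs, 46.8% at 2000, 43.2% without thinning and 19.6% in listed cells. The VCAN share (7.20%) was 5.48%, 13.8% and 13.0% at 750, 2000 and without thinning. List members higher in T320 (3) numbered 1 with TMM and with DESeq2 factors, 5 without mitochondrial and ribosomal genes, with a pseudocount of 1 and with no minimum CPM, and 0 with a minimum of 200 CPM. Those lower (2) numbered 3 with TMM, with DESeq2 factors and with a pseudocount of 1, and 6 with no minimum. Of 59 planned values 34 and of 17 added ones 16 did not move by more than counting error (for counts, by more than 1.5 times). These include the S4 minus S2 differences with TMM and DESeq2 factors. Both states of a library share 1 factor, so those values could hardly move. Without the cells whose barcode occurs in another library, added after seeing the data, the CD44 difference was 3.60 and the VCAN difference 3.24. No paired analysis was possible because each population has 1 library and no replicate numbers. Depth limits both genes at low doses: CD44 rests on 29, 30 and 31 UMIs in T1, T2.5 and T5, and VCAN on 34 and 25 in T1 and T2.5.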
